A study of Drosophila melanogaster with 12 samples.

Results

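The UDP-glycosyltransferase genes of Drosophila melanogaster were followed in RNA from whole fly heads, across 2 genotypes with and without lithium. The members are the probe sets whose array annotation names exactly 1 gene with a symbol made of Ugt and a digit. This gave 35 probe sets for 35 genes, 1 each, of 13647 probe sets that name exactly 1 gene. The table of genome release 6 holds 35 such genes, and all of them have a probe set. Of the 35, 20 passed the filter on dim probe sets and were tested.

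UDP-glycosyltransferases join a sugar, in insects mostly glucose taken from UDP-glucose, to small fat-soluble molecules. The product dissolves in water and can be excreted or stored. In insects the substrates include plant compounds, insecticides, pigments, hormones and odorants, and the enzymes work beside cytochrome P450s and glutathione transferases in the clearance of foreign compounds. The family number in the symbol groups proteins of similar sequence.

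Each of 4 groups has 3 arrays. CS_50 is the strain labelled CS, described as wild type, on 50 mM lithium, and CS_0 is the same strain without treatment. Shu_50 is the strain labelled Shu, described as mutant, on 50 mM, and Shu_0 is that mutant without treatment. For Shu_50 the labels give the dose and no drug, and the series title names lithium. The gene annotation lists Shu and Shudderer as names of para, the voltage-gated sodium channel gene of the fly. Sex, age, length of treatment, and the number of heads pooled were not given. CS_50 replicate 2 is numbered 2 in its title and 1 in its description, and the title's number is used. Nothing says whether replicates came from separate cultures, so p-values measure only the spread between these arrays.

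Signal is the deposited intensity of a probe set on an array, and the medians of the 12 arrays lay between 23.9 and 25.8. Differences are on the scale log2(signal + 6.26), which understates the changes of dim genes, and errors after ± are limma's standard errors unless stated. A call is a Benjamini-Hochberg adjusted p under 0.05 by limma over the 11261 probe sets tested. Head markers were present, with mean signals of 12395 for Arr2 of photoreceptors, 413 for the neuronal elav and 428 for the glial repo. Apart from Irk2 (740), the 8 gut and Malpighian tubule markers with a probe set lay between 1.61 and 38.1. On the first principal component the 2 arrays farthest from 0 were Shu_0 replicate 1 (17.9) and CS_0 replicate 3 (-20.5). All CS arrays lay below 0 on it and all Shu arrays above.

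The family was unevenly represented in the head signal. All 4 genes of family 36 and all 3 of family 302 were tested, as were 4 of 6 of family 35, 3 of 8 of family 37 and 2 of 3 of family 49. The single genes Ugt50B3, Ugt301D1, Ugt316A1 and Ugt317A1 were tested as well. None of the 4 genes of family 303 passed the filter, nor did Ugt304A1, Ugt305A1 or Ugt307A1. The mean signals of the 20 tested members lay between 13.2 and 836, and those of the 15 others between 2.41 and 10.7. The highest single value among the 15 was 29.1. A signal also depends on the probes of a set, so the signals of different members are not ranked against each other. The names of 3 probe sets, those of Ugt37D1, Ugt36E1 and Ugt50B3, end in _s_at, which marks probes shared by several transcripts.

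**Figure D1:**
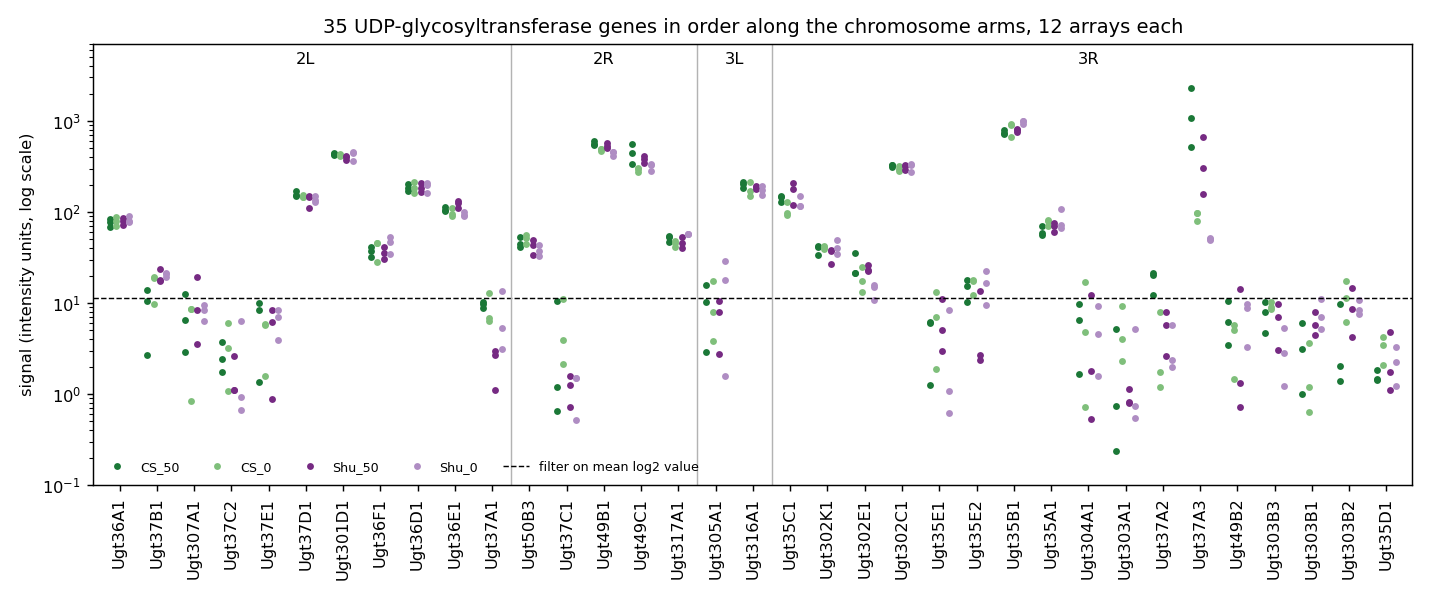
Signal (intensity units, log scale) of the 35 members on the 12 arrays, in order along the chromosome arms named at the top, with 1 point per array coloured by group and a dashed line at the filter. Among the 20 members above the line, the points of Ugt37A3 on 3R spread widest, from 49.0 to 2302.

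The genes lie in runs. Counting protein-coding genes in genome order and allowing at most 2 other genes between members, 23 of the 35 fell into 6 runs and 12 stood alone. The largest run, on 3R, holds 10 members, from Ugt35C1 to Ugt303A1, of which 7 were tested. Ugt37A3 and Ugt37A2 are direct neighbours on 3R, and so are Ugt49B1 and Ugt49C1 on 2R.

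Lithium in the wild type was compared first, in order to see which members differed without the mutation. Ugt37A3 and Ugt49C1 rose, and no member fell. That is 2 of 20 tested members, or 10%, where 1.62% of all tested probe sets were called, 0.995% higher and 0.622% lower. Arrays did not overlap for 3 members, all higher, where 19.1% of all tested probe sets did not overlap. The median difference of the 20 members was 0.0496, beside 0.00310 for all tested probe sets. Both called members were above the filter on every array, with lowest signals of 49.0 for Ugt37A3 and 276.5 for Ugt49C1, so neither passed through its lithium arrays alone.

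Ugt37A3 (probe set 1638182_at, 3R) had signals of 523, 1088 and 2302 in CS_50 replicates 1, 2 and 3, against 97.5, 79.1 and 98.1 in CS_0. In the mutant it had 156, 667 and 307 in Shu_50, against 52.0, 50.0 and 49.0 in Shu_0. Every lithium array lay above every untreated array, across both genotypes. The rise was 11.3-fold in the wild type (log2 3.50 ± 0.43, adjusted p = 0.000222 by limma) and 5.74-fold in the mutant (2.52 ± 0.43, adjusted p = 0.00317).

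The untreated arrays of Ugt37A3 were close together and the lithium arrays were not. The highest array was 4.40 times the lowest in CS_50 and 4.27 times in Shu_50. Coefficients of variation were 69.7% in CS_50 and 69.6% in Shu_50, beside group medians over the 20 tested members of 9.03% in CS_50 and 11.7% in Shu_50. The highest lithium array was CS_50 replicate 3 for the wild type, and Shu_50 replicate 2 for the mutant. Leaving out any 1 array left the wild type difference between 2.97 and 4.03, and the mutant difference between 2.00 and 3.02, all called. A fit that omits the intensity trend did not call the mutant difference (adjusted p = 0.0718).

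Beside these lithium contrasts, the summed signal of 12 of 14 listed fat body markers was 51492 to 53283 in CS_50, against 60072 to 67586 in CS_0. In the mutant it was 53640 to 66598 in Shu_50, against 61333 to 73138 in Shu_0, with overlap. Yp1, Yp2 and Yp3 (mean signals 12303, 11391 and 10744) made up most of this sum. By limma, 2 of the 12 markers were higher and 6 lower at an unadjusted p under 0.05 in the wild type. In the mutant 2 were higher and 4 lower, where 13.1% (wild type) and 11.9% (mutant) of all tested probe sets passed that level. For the control gene eIF-4a, the log2 of the 3' signal over the 5' signal, a sign of RNA quality, averaged 2.48 in CS_50 and 2.77 in CS_0 without overlap, and 2.53 in Shu_50 and 2.54 in Shu_0 with overlap. Sums of 5 of 12 photoreceptor markers (28246 to 28832 in CS_50, against 31818 to 34355 in CS_0) and of 9 of 10 neuronal markers (6726 to 6829 in CS_50, against 6886 to 7534 in CS_0) did not overlap in the wild type either, nor did the log2 ratio of the control gene GAPDH (0.875 to 0.987 in CS_50, against 0.997 to 1.08 in CS_0). In the mutant the sums without overlap were those of 8 of 12 muscle markers (17886 to 18594 in Shu_50, against 16213 to 16719 in Shu_0), 9 of 12 gut and Malpighian tubule markers (736 to 837 in Shu_50, against 936 to 1199 in Shu_0) and 12 of 14 ovary and chorion markers (82.0 to 121 in Shu_50, against 131 to 444 in Shu_0). Irk2, at a mean signal of 740, made up most of the gut and Malpighian tubule sum. The part of these measures in the results was not tested. In bulk heads, fewer cells of a type and less RNA per cell cannot be told apart.

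**Figure D2:**
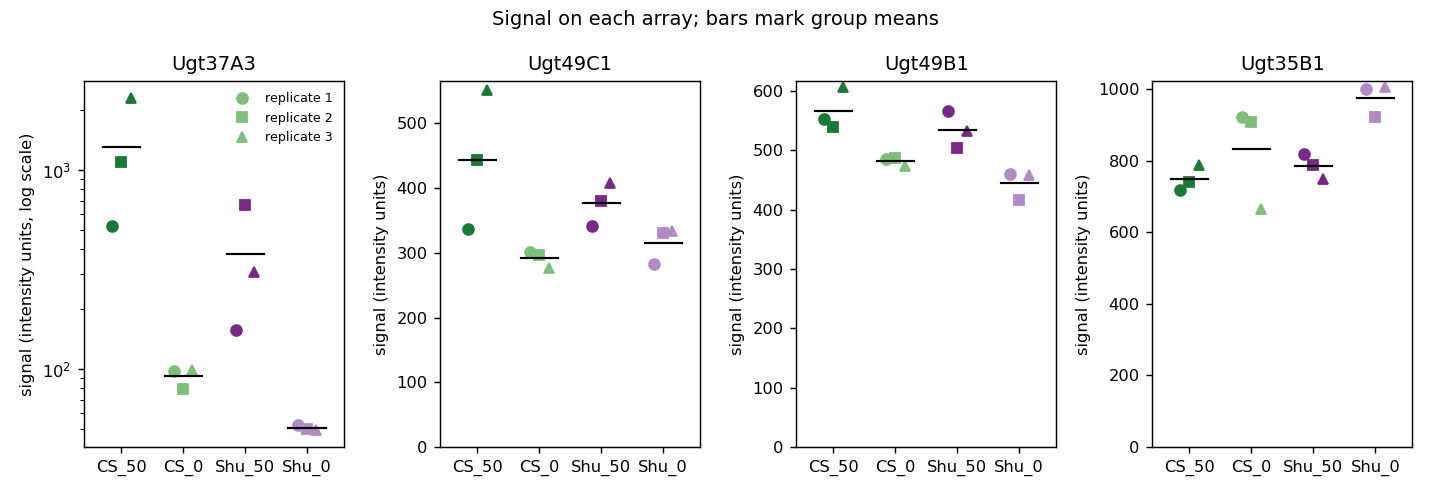
Signal (intensity units) on each array for 4 members, by group, with symbols for the replicate number and bars at the group means; the Ugt37A3 axis is logarithmic and the others start at 0. For Ugt37A3 the lithium arrays run from 156 to 2302, and all lie above the untreated arrays.

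The neighbouring pair of family 49 was also higher on lithium, by smaller amounts. Ugt49C1 (1625873_at, 2R) had signals of 337, 444 and 552 in CS_50 replicates 1, 2 and 3, against 302, 297 and 276.5 in CS_0. The groups did not overlap, and the rise was 1.48-fold (log2 0.57 ± 0.13, adjusted p = 0.0307). In the mutant Ugt49C1 had 341, 380.2 and 407 in Shu_50, against 282, 330.5 and 334 in Shu_0. The groups were again separate, and the difference of 0.25 ± 0.13 was not called (adjusted p = 0.472). Leaving out CS_50 replicate 2 (adjusted p = 0.121) or 3 (0.162), or CS_0 replicate 1 (0.0740), 2 (0.0716) or 3 (0.124), ended the wild type call, and the adjusted p over all 22 alternatives ran from 0.000891 to 0.171.

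Ugt49B1 (1630066_at, 2R), its direct neighbour, had signals of 553, 539 and 607 in CS_50, against 486, 487 and 473 in CS_0. In the mutant it had 567, 503 and 533 in Shu_50, against 461, 415 and 458 in Shu_0. No lithium array of either genotype was as low as any of its untreated arrays. The differences of 0.23 ± 0.07 in the wild type (adjusted p = 0.111) and 0.26 ± 0.07 in the mutant (adjusted p = 0.0568) were each not called. In the mutant the call was made without Shu_50 replicate 2 (adjusted p = 0.0415) and with array weights (adjusted p = 0.0474).

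Averaged over the genotypes, which uses all 12 arrays and repeats those of the single contrasts, lithium raised Ugt37A3 by 3.01 ± 0.30 (adjusted p = 1.02e-05), Ugt49C1 by 0.41 ± 0.09 (adjusted p = 0.0133) and Ugt49B1 by 0.24 ± 0.05 (adjusted p = 0.00520). These 3 of 20 tested members make 15%, where 4.13% of all tested probe sets were called, 2.39% higher and 1.74% lower. Ugt49B1 was called in each of the 21 alternatives, with differences from 0.22 to 0.27. The call of Ugt49C1 ended with the trend left out of the fit (adjusted p = 0.0991), and with CS_0 replicate 3 and Shu_0 replicate 1 left out together (adjusted p = 0.0844).

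Ugt35B1 (1626970_at, 3R), described as preferentially expressed in the fly antenna, stood lower on lithium in the mutant without being called. Its signals were 720, 741 and 788 in CS_50, against 922, 910 and 665 in CS_0, where replicate 3 was the low array. In the mutant it had 819, 788 and 749 in Shu_50, against 1002, 923 and 1006 in Shu_0, without overlap. The difference was -0.31 ± 0.10 in the mutant (adjusted p = 0.139) and -0.13 ± 0.10 in the wild type (adjusted p = 0.603). The wild type difference was -0.29 without CS_0 replicate 3 (adjusted p = 0.0550) and -0.05 without CS_0 replicate 1 (adjusted p = 0.894). Without CS_0 replicate 3 the mutant difference kept its size, since its own arrays are the same, and was called (adjusted p = 0.00742) with a narrower shared spread. Averaged over genotypes it was -0.22 ± 0.07 (adjusted p = 0.0804), and without that array -0.30 (adjusted p = 0.000662). The summed signal of the olfactory markers overlapped between Shu_50 (20051 to 23378) and Shu_0 (22732 to 25120).

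In the mutant Ugt37A3 was the 1 called member of 20, or 5%, where 1.86% of all tested probe sets were called, 1.21% higher and 0.648% lower. Arrays did not overlap for 5 members that were higher and 2 that were lower, where 15.8% of all tested probe sets did not overlap. The median difference of the 20 members was -0.0261, beside -0.0123 for all tested probe sets. Over the members, 8 were above 0 in both genotypes, 8 below 0 in both and 4 of opposite sign. At an unadjusted p under 0.05 there were 4 higher and 0 lower members in the wild type, and 5 higher and 2 lower in the mutant. Of all tested probe sets, 13.1% passed that level in the wild type, and 11.9% did so among mutant arrays.

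The further members at that level are named after their values were seen, and none was called. Ugt35C1, also known as Ugt86Dd and linked to nicotine resistance in flies, differed by 0.40 ± 0.17 in the wild type (adjusted p = 0.302) and by 0.38 ± 0.17 in the mutant (adjusted p = 0.377). Without Shu_50 replicate 2, whose signal of 121 lay below the 180 and 209 of the other lithium arrays, its difference in the mutant was 0.60 (adjusted p = 0.0460), and without Shu_50 replicate 3 it was 0.22 (adjusted p = 0.763). Ugt36E1 had 131, 109.9 and 126 in Shu_50, against 92.6, 89.6 and 99.4 in Shu_0, a difference of 0.36 ± 0.10 without overlap (adjusted p = 0.106). Ugt302E1 differed by 0.59 ± 0.24 in the mutant (adjusted p = 0.319) and Ugt35E2 by -0.93 ± 0.34 (adjusted p = 0.261). For Ugt35E2 the 2 lowest arrays of Shu_50, at 2.37 and 2.67, lie below the offset, so that its size depends on it (-1.80 with no offset and -0.65 with double).

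**Figure D3:**
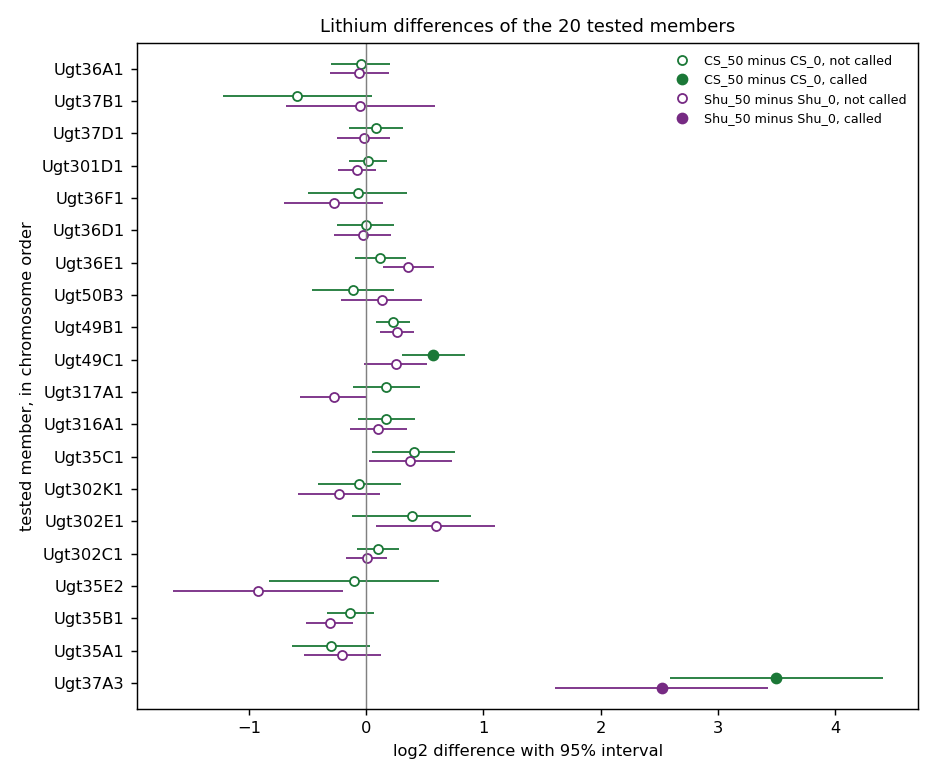
Log2 differences between lithium and untreated arrays with 95% intervals for the 20 tested members, wild type above mutant in each row; filled points are called. Ugt37A3 is called in both genotypes at 3.50 and 2.52, Ugt49C1 in the wild type at 0.57, and most other intervals include 0.

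The other 9 tested members had no difference at an unadjusted p under 0.05 in any of the 4 comparisons between groups, and their differences lay between -0.30 (Ugt35A1, lithium in wild type heads) and 0.17 (Ugt316A1, same comparison). Ugt301D1 averaged a signal of 429.7 ± 12.4 in CS_50 and 425 ± 12.4 in CS_0, and 396 ± 19.0 in Shu_50 and 419.9 ± 47.8 in Shu_0 (SD, n = 3 each). Ugt36A1, also known as Dorothy, averaged 76.4 ± 7.01 in CS_50 and 79.4 ± 8.24 in CS_0, and 79.1 ± 7.57 in Shu_50 and 82.6 ± 7.42 in Shu_0 (SD, n = 3 each). For both genes the lithium and untreated arrays overlapped in each genotype. On lithium, the Ugt301D1 signals in Shu_50 (401, 375 and 413) all lay below those in CS_50 (430, 417 and 442). That difference of -0.12 ± 0.08 was not called, and 18.9% of all tested probe sets did not overlap in that comparison. Ugt302C1, Ugt302K1, Ugt36D1, Ugt36F1 and Ugt37D1 differed by between -0.28 (Ugt36F1, lithium in mutant heads) and 0.15 (Ugt36F1, untreated mutant against wild type).

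For most members the arrays allow a bound on the change. The 95% interval, not adjusted for the number of members, lay within ±1 on the log2 scale for 18 of 20 wild type and 17 of 20 mutant differences. It lay within ±0.5 for 13 and 8 of them. The half-width of the interval was 0.141 for Ugt49B1, the narrowest, 0.277 at the median and 0.909 for Ugt37A3, the widest.

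The genotypes were compared next, in order to see what distinguishes the mutant strain at rest and on the drug. No member was called in either comparison, where 5.07% of all tested probe sets were called untreated (2.11% higher and 2.96% lower) and 0.506% on lithium (0.329% higher and 0.178% lower). Arrays did not overlap for 5 members untreated and 2 on lithium, where 23.2% and 18.9% of all tested probe sets did not overlap. By limma 2 members were higher and 1 lower at an unadjusted p under 0.05 untreated, and 1 higher and 2 lower on lithium, where 20% and 11.6% of all tested probe sets passed that level. The median difference of the 20 members was 0.0150 untreated and -0.0789 on lithium, beside 0.0104 and -0.00978 for all tested probe sets.

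Ugt37A3 was lower in the mutant in both conditions. Untreated, the arrays did not overlap (52.0, 50.0 and 49.0 in Shu_0, against 97.5, 79.1 and 98.1 in CS_0), and the difference of -0.78 ± 0.43 was not called in the fit over 12 arrays, whose shared spread includes the lithium arrays (adjusted p = 0.333). Fitted on those 6 arrays alone, the same difference was called (adjusted p = 0.0101). On lithium the difference was -1.76 ± 0.43 (adjusted p = 0.0770), with 1 Shu_50 array (667) above the lowest CS_50 array (523). That error uses the same shared spread, which includes the close untreated arrays, so it understates the spread of the lithium arrays. The difference on lithium was called with array weights (log2 -2.05, adjusted p = 0.0239), and also without CS_50 replicate 1 (log2 -2.29, adjusted p = 0.0105) or Shu_50 replicate 2 (-2.29, adjusted p = 0.0161). Those arrays are the ones that overlapped. Over the 22 alternatives the difference ran from -2.29 to -1.23, with adjusted p up to 0.315.

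Beside the untreated comparison, the summed signal of 9 of 12 gut and Malpighian tubule markers was 936 to 1199 in Shu_0, against 749 to 892 in CS_0. That of 9 of 10 epidermis and cuticle markers was 3926 to 4331 in Shu_0, against 2848 to 3064 in CS_0. That of 8 of 12 muscle markers was 16213 to 16719 in Shu_0, against 17044 to 17810 in CS_0, and that of 10 of 12 oenocyte and hemocyte markers was 7886 to 8202 in Shu_0, against 8336 to 9710 in CS_0. The eIF-4a log2 ratio was 2.46 to 2.65 in Shu_0, against 2.66 to 2.96 in CS_0. On lithium the sums without overlap were those of cuticle (3831 to 4165 in Shu_50, against 2927 to 3089 in CS_50), fat body (53640 to 66598 in Shu_50, against 51492 to 53283 in CS_50) and muscle (17886 to 18594 in Shu_50, against 16433 to 17382 in CS_50). Irk2 (mean signal 740) made up most of the gut and Malpighian tubule sum, and Vajk2 (2844) most of the cuticle sum. Desat1 (5319) made up most of the oenocyte and hemocyte sum. The part of these measures was not tested.

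Averaged over treatments, Ugt37A3 fell by 1.27 ± 0.30 in the mutant (adjusted p = 0.0166) and was the 1 called member, or 5% of those tested, where 7.92% of all tested probe sets were called, 3.4% higher and 4.52% lower. The call ended with the trend left out of the fit (adjusted p = 0.0952) and with CS_0 replicate 3 and Shu_0 replicate 1 left out together (adjusted p = 0.0795). It was called without any 1 array, with differences from -1.54 to -1.01.

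Other members whose genotypes differed at an unadjusted p under 0.05, named after their values were seen, were not called. Ugt35B1 differed by 0.24 ± 0.10 untreated (adjusted p = 0.156), and without CS_0 replicate 3 by 0.09. Ugt317A1 had 57.8, 57.1 and 57.8 in Shu_0, against 45.9, 48.1 and 40.9 in CS_0, a difference of 0.32 ± 0.13 without overlap (adjusted p = 0.188). Ugt50B3 differed by -0.37 ± 0.16 untreated (adjusted p = 0.225), also without overlap. On lithium Ugt37B1 differed by 0.83 ± 0.30 (adjusted p = 0.261), with 1 CS_50 array at 2.71, and Ugt35E2 by -0.83 ± 0.34 (adjusted p = 0.349). Over the alternatives these differences ran from 0.48 to 1.40 for Ugt37B1 and from -1.67 to -0.56 for Ugt35E2.

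**Figure D4:**
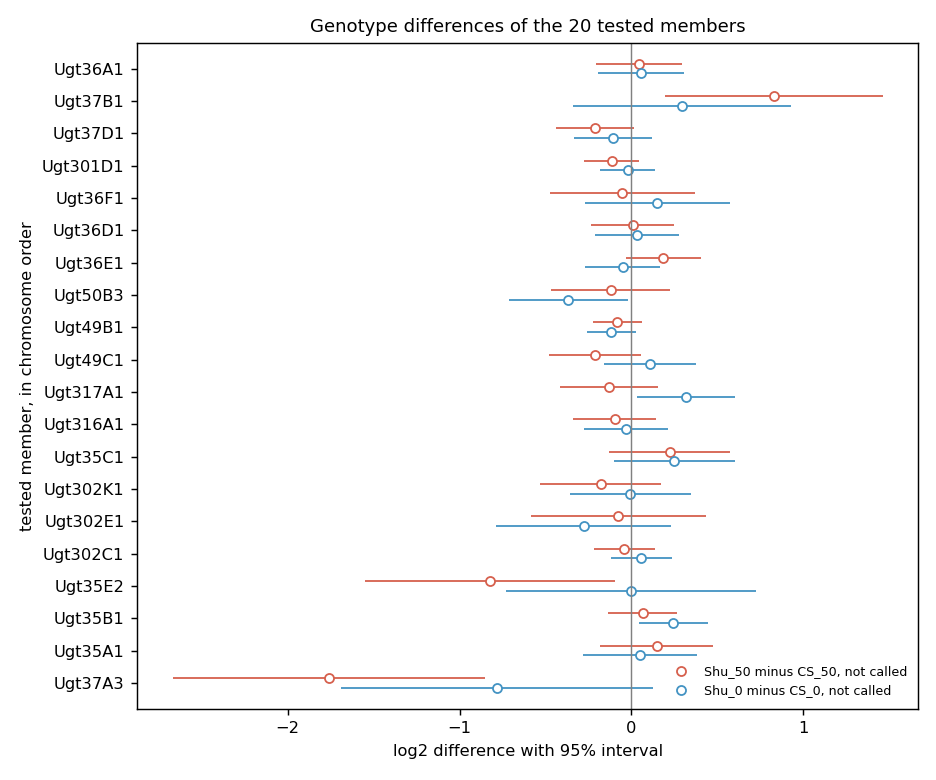
Log2 differences between mutant and wild type with 95% intervals for the 20 tested members, lithium-treated above untreated in each row. No member is called, and Ugt37A3 lies lowest at -1.76 on lithium.

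Whether the genotypes differed in their lithium response was tested with the interaction term. No member was called, where 0.00888% of all tested probe sets were called, all of it higher and 0% lower. By limma 1 member passed an unadjusted p under 0.05, against 6.73% of all tested probe sets. That member was Ugt317A1 (-0.45 ± 0.19, adjusted p = 0.724), with 45.8, 53.7 and 40.4 in Shu_50, against its Shu_0 signals of 57.1 to 57.8, and 54.6, 52.6 and 47.2 in CS_50, against its CS_0 signals of 40.9 to 48.1. For Ugt37A3 the rise in the mutant was smaller by 0.98 ± 0.61, with a 95% interval of the difference from -2.26 to 0.31 (adjusted p = 0.808). With 1 array left out it ran from -1.51 (without CS_50 replicate 1) to -0.45 (without CS_50 replicate 3). It was -0.48 without Shu_50 replicate 1 and -1.504 without Shu_50 replicate 2. For Ugt49C1 the interaction was -0.32 ± 0.18 (adjusted p = 0.787), and ran from -0.50 without CS_50 replicate 1 to -0.15 without CS_50 replicate 3.

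Of 12 tested genes that make or transport UDP-sugars, 1 rose on lithium in each genotype, where 1.62% of all tested probe sets were called in wild type and 1.86% in mutant heads. It was Galk, which phosphorylates galactose at the entry to the UDP-galactose pathway. Its rise was 0.35 ± 0.08 in the wild type (adjusted p = 0.0431) and 0.55 ± 0.08 in the mutant (adjusted p = 0.00124). The wild type call was lost in 11 of 22 alternatives, 8 of them with 1 array left out, with adjusted p values up to 0.222. The median difference of the 12 genes was -0.0912 for wild type and -0.00658 for mutant heads. None of the 12 was called between genotypes in either condition, where 5.07% of all tested probe sets were called untreated and 0.506% on lithium. Averaged over genotypes, lithium raised Galk (0.45 ± 0.06, adjusted p = 0.000143) and Pgm1 (0.13 ± 0.04, adjusted p = 0.0467), where 4.13% of all were called. Averaged over treatments, mmy was higher in the mutant (0.17 ± 0.05, adjusted p = 0.0310), where 7.92% were called. Pgm1 lost its call in 14 of 21 alternatives and mmy in 10.

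Among 6 tested genes listed as other users of UDP-glucose, AGBE rose in both genotypes, by 0.46 ± 0.08 (adjusted p = 0.00667) in the wild type and 0.45 ± 0.08 (adjusted p = 0.00622) in the mutant. AGBE branches glycogen, whose glucose comes from UDP-glucose, and does not itself use the nucleotide sugar. That is 1 of 6 in each, beside the same 1.62% and 1.86%. Leaving out CS_50 replicate 3 ended its wild type call (adjusted p = 0.0525), and omitting the trend from the fit ended the call in the wild type (0.0963) and in mutant heads (0.0856). In the list 1 gene was called between the untreated genotypes, namely wol (0.36 ± 0.08, adjusted p = 0.0163), which makes the lipid-linked glucose donor for protein glycosylation, where 5.07% of all tested probe sets were called. That call was lost without CS_0 replicate 3 (adjusted p = 0.0612), Shu_0 replicate 1 (0.0575) or Shu_0 replicate 3 (0.0589). It was also lost with the trend omitted (0.0791) and without CS_0 replicate 3 and Shu_0 replicate 1 together (0.136). The list had 0 calls on lithium between genotypes, where 2 genes passed an unadjusted p under 0.05 by limma. Of all tested probe sets, 0.506% were called in that comparison and 11.6% passed that level. Averaged over treatments, wol (0.29 ± 0.06, adjusted p = 0.00487) and Gyg (0.26 ± 0.07, adjusted p = 0.0268) were called higher in the mutant, where 7.92% of all were called. Gyg lost its call in 8 of 21 alternatives, and its other probe set gave -0.22 ± 0.08 and was not called.

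Of 8 tested regulators of detoxification, none was called on lithium in either genotype by limma, with 0 of them at an unadjusted p under 0.05 in wild type heads and 1 in mutant heads. In the same order 1.62% and 1.86% of all tested probe sets were called, and 13.1% and 11.9% passed that level. The gene cnc, which encodes the transcription factor that switches on detoxification genes in oxidative stress, was lower in Shu_0 than in CS_0 by probe set 1633379_s_at (log2 -0.56 ± 0.15, adjusted p = 0.0416). This call was lost in 11 of 22 alternatives, 7 of them with 1 array left out, with adjusted p values up to 0.411. The further probe set of cnc gave -0.23 ± 0.29 and was not called. Between untreated genotypes 3 of the 8 regulators were lower at an unadjusted p under 0.05 and 0 higher, where 20% of all tested probe sets passed that level and 5.07% were called. The other 2 were tgo (-0.21 ± 0.06, adjusted p = 0.0711) and EcR (-0.51 ± 0.18, adjusted p = 0.122), neither called. On lithium no regulator was called between genotypes, and EcR alone passed an unadjusted p under 0.05 by limma (-0.62 ± 0.18, adjusted p = 0.166). Of all tested probe sets 0.506% were called there and 11.6% passed. Averaged over treatments, EcR (-0.57 ± 0.13, adjusted p = 0.0127) and cnc (-0.35 ± 0.11, adjusted p = 0.0499) were called lower, where 7.92% of all were called. EcR lost its call in 2 of 21 alternatives, cnc in 13.

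Of 18 tested detoxification cytochrome P450s, Cyp309a1 rose on lithium by 1.72 ± 0.17 in the wild type (adjusted p = 2.42e-05) and by 1.11 ± 0.17 in the mutant (adjusted p = 0.00106). Cyp6g1, known for its part in DDT resistance, rose in the mutant by 0.29 ± 0.06 (adjusted p = 0.0124). That call was lost without Shu_50 replicate 1 (adjusted p = 0.0549), Shu_50 replicate 3 (0.0585) or Shu_0 replicate 2 (0.0545), and with the trend omitted (0.103). Cyp6a2 (-0.84 ± 0.14, adjusted p = 0.00453) and Cyp6a9 (-0.59 ± 0.11, adjusted p = 0.00757) fell in the untreated mutant. With the trend omitted from the fit, neither was called (adjusted p = 0.0602 for Cyp6a2 and 0.0737 for Cyp6a9). Neither was called with CS_0 replicate 3 and Shu_0 replicate 1 left out together (adjusted p = 0.112 for Cyp6a2 and 0.121 for Cyp6a9). In that setting the calls over all probe sets fell from 571 to 31. The calls were 1 of 18 for lithium in wild type heads, 2 in mutant heads and 2 between untreated genotypes, beside 1.62%, 1.86% and 5.07% of all tested probe sets. At an unadjusted p under 0.05 there were 1 higher and 0 lower, 5 higher and 1 lower, and 2 higher and 4 lower in the same order, beside 13.1%, 11.9% and 20% of all tested probe sets.

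Of 16 tested genes of sulfotransfer, glutathione conjugation, export and hydrolysis, none was called in any of the 4 comparisons by limma, and 1 to 3 passed an unadjusted p under 0.05 in each. For lithium in wild type and mutant heads, 1.62% and 1.86% of all tested probe sets were called, and 13.1% and 11.9% passed that level. Between genotypes, 5.07% were called and 20% passed it untreated, and 0.506% and 11.6% on lithium. In the averaged contrasts GstD1 was called higher on lithium (0.17 ± 0.04, adjusted p = 0.0254) and Gclc lower in the mutant (-0.19 ± 0.05, adjusted p = 0.0345). There 4.13% and 7.92% of all tested probe sets were called. The 2 calls were lost in 11 and 10 of 21 alternatives.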

How the data were processed

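Whole-head RNA was measured on 12 Affymetrix arrays. The deposited table holds 1 intensity per probe set and array. The software behind it is not given in the sources used here. Each deposited intensity column had a mean of 150.005 after trimming 2% at each end, so the columns were already scaled and were not scaled again.

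The working scale was log2(intensity + 6.26), the offset being the 25th percentile of all values without controls. Of 18952 probe sets, 183 controls were left out, and the 11261 at or above the 40th percentile of mean log2 value (a signal of 11.5) were tested. Genes came from the array annotation, updated by Entrez number, and all 35 member symbols stayed as they were. Non-member genes entered through their probe set of highest mean.

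Group means were fitted in limma 3.58.1 (R 4.3.3; lmFit, eBayes with an intensity trend) over 12 arrays, with 8 residual degrees of freedom and two-sided tests. The 7 contrasts share arrays, except the 2 lithium contrasts with each other and the 2 genotype contrasts with each other. The number of arrays limits the precision. Figures used matplotlib 3.10.9. On simulated arrays, 46 (wild type) and 39 (mutant) of 80 added lithium changes of log2 0.5 were called, and 69 and 67 of 80 of log2 1, over 11261 probe sets. The simulated noise was normal and independent, with 1 spread per probe set, equal in all groups. It does not cover a gene such as Ugt37A3, whose lithium arrays spread more than its untreated ones.

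The members and lists were chosen with earlier results of these data known. Values on every array are given for members called in any contrast and for the 3 of highest mean signal. Of listed genes other than markers, those called in any contrast are named. The alternatives were quantile normalization, no or double offset, no filter, a filter at the 60th percentile, a fit omitting the trend, the compared arrays alone, array weights, a replicate block, each array left out, and 2 arrays left out together. Correlations between same-numbered arrays of different groups, after removing group means, lay from -0.0649 to 0.0918, so the numbers, 1 of which conflicts between title and description, were not taken as pairs.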

Additional observations from a re-analysis of the deposited data

Results flagged for a closer look

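The 15 members below the filter are not used in the comparisons above. Of them 2 are described here, picked because all arrays were higher on lithium or in the mutant in a comparison. All arrays were lower for 1 member in each lithium comparison, and for 2 in each genotype comparison. Ugt37A2, the direct neighbour of Ugt37A3 on 3R, had signals of 12.2, 20.3 and 21.4 in CS_50 (mean 18.0), against 1.73, 7.91 and 1.19 in CS_0. In the mutant it had 7.95, 5.69 and 2.60 in Shu_50, against 5.77, 1.97 and 2.35 in Shu_0, with overlap. Without the filter its lithium difference in the wild type was 1.34 ± 0.31, and its interaction was -1.06 ± 0.45. Its Shu_50 arrays all lay below its CS_50 arrays (log2 difference -1.06 ± 0.31). Only its CS_50 arrays lay above the filter signal of 11.5. These differences rest on the arrays by which Ugt37A2 was picked, so no p is given. Ugt303B1 had 6.96, 11.1 and 5.18 in Shu_0 (mean 7.75), against 0.636, 1.19 and 3.64 in CS_0. Its difference of 0.79 ± 0.27 without the filter rests on the values by which it was picked, and no p is given. Among all 7508 untested probe sets, 3.84% had every CS_50 array above every CS_0 array, and 3.93% every Shu_0 array above every CS_0 array. The groups hold 3 arrays each, so that no single array was tested for standing apart.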

How the results depend on the processing

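The number of called members moved as follows, and the calls over all probe sets moved with the settings as given at the end. For lithium in the wild type it was 2, and 1 with all probe sets tested, with the intensity trend omitted, on the compared arrays alone, and without CS_0 replicate 3 and Shu_0 replicate 1 together; leaving out 1 array gave 1 to 2. For lithium in the mutant it was 1, with 0 without the trend, and 2 with the filter at the 60th percentile, on the compared arrays alone, with array weights, with the replicate block and without those 2 arrays; leaving out 1 array gave 1 to 3. Between untreated genotypes it was 0, and 1 on the compared arrays alone. Between genotypes on lithium it was 0, and 1 with array weights and with the replicate block; leaving out 1 array gave 0 to 1. For lithium averaged over genotypes it was 3, with 2 when the trend was omitted and 5 with array weights; leaving out 1 array gave 3 to 5. For the mutant averaged over treatments it was 1, with 0 without the trend and without those 2 arrays. The causes of these moves were not tested. The replicate block, though the numbers do not pair the arrays, added Ugt49B1 in the mutant (adjusted p = 0.0463) and Ugt37A3 between genotypes on lithium (adjusted p = 0.0405), and changed no other count of members. Using every probe set of a gene was not run, since each member has 1.

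Over the differences of single genes, 1329 kept direction and side of the threshold, 121 lost the call, 21 gained it and 4 turned sign. Those 4 were uncalled: the interaction of Ugt49B1, 0.03, ran from -0.0138 to 0.0846 with 1 array left out (-0.000756 without CS_50 replicate 2, -0.00914 without Shu_50 replicate 1, -0.0138 without Shu_0 replicate 2), and the averaged genotype difference of Ugt49C1, -0.05, was 0.0331 without CS_50 replicate 3 and -0.142 at its lowest.

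Calls over all probe sets moved too. For lithium in the wild type, 182 became between 44 (trend omitted) and 243 (compared arrays alone). For lithium in the mutant, 209 became between 91 (trend omitted) and 238 (without Shu_50 replicate 2). Between untreated genotypes, 571 became between 31 (without CS_0 replicate 3 and Shu_0 replicate 1) and 703 (filter at the 60th percentile). Between genotypes on lithium, 57 became between 25 (trend omitted) and 133 (array weights). The interaction moved from 1 to between 0 and 2. For lithium averaged, 465 became between 223 (trend omitted) and 568 (array weights). For the genotype averaged, 892 became between 329 (trend omitted) and 1071 (without Shu_0 replicate 2). For the 15 members below the filter, low signal over background leaves no test in the main setting.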
